A study of Mus musculus with 5 samples.

Results

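The genes described here encode the tubulins, the stathmins and the proteins that bind, stabilise or track microtubules, with the growth-cone proteins *Gap43* and *Basp1* and the neuronal enzyme *Uchl1*. They were chosen by gene symbol alone, and 46 of the 23903 gene symbols in the table met the rule, with 77 transcripts between them. Of the genes, 12 have several transcripts, and the transcript of highest mean level stands for the gene. No filter on low values was applied, so all 46 were tested. RNA was sequenced from 2 libraries of L1CAM-positive and 3 libraries of L1CAM-negative spheres, grown from postnatal mouse adrenal cells that had been separated by panning on an antibody to L1CAM, a cell adhesion molecule of neurons and chromaffin cells. The L1CAM-positive libraries, labelled chromaffin cell, carry the numbers 25 (8 days in sphere culture) and 31 (5 days), both from a mix of P0 and P2 mice. The L1CAM-negative libraries, labelled as non-adrenergic cells, carry the numbers 25 and 31 with the same ages and culture periods, and 28, from P5 mice after 8 days. The labels give the strain C57/bl6 for every library and name no genetic change or drug, whereas the methods give OF-1 mice. Whether the libraries come from separate animals or cultures is not stated, so the p-values rest on the spread among these 5 libraries, some of which may be technical.

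Microtubules are built from dimers of an alpha- and a beta-tubulin, and mammals have several genes for each. The products differ most in the acidic tail at the end of the protein, where enzymes add or remove residues and where many microtubule-associated proteins (MAPs) bind. Gamma-tubulin starts new microtubules, stathmins hold tubulin dimers back from the polymer, structural MAPs and doublecortins stabilise the lattice, collapsin response mediator proteins (CRMPs) carry tubulin dimers and relay guidance signals, and end-binding proteins track the growing end. Neurons and neuroblasts use a set of isotypes and MAPs that most other cells hold at low levels. Chromaffin cells are neuroendocrine cells that, like sympathetic neurons, trace back to the neural crest, in good part through Schwann cell precursors.

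Values are on the deposited scale, log2(FPKM + 2), on which an FPKM (fragments per kilobase of transcript and sequencing depth) of 0 reads 1 and the changes of weakly expressed genes are compressed. Fold changes are log2 values of L1CAM-positive over L1CAM-negative spheres, with their standard error (SE) and a p-value that limma adjusted over all genes. How deeply the libraries were sequenced is unknown. Library values are always given in the order of numbers 25 and 31 for L1CAM-positive spheres and 25, 31 and 28 for L1CAM-negative spheres. Of 10 chromaffin markers, 7 were higher in L1CAM-positive spheres and their summed level was 6720 to 8440 FPKM there, against 98.9 to 530.0 FPKM in L1CAM-negative spheres. Cortex markers were lower in L1CAM-positive spheres (6 of 6) but still summed to 1750 to 1810 FPKM, against 7460 to 12600 FPKM in L1CAM-negative spheres. Of 6 glial markers 4 were higher (55.0 to 117 FPKM in L1CAM-positive and 6.03 to 10.2 FPKM in L1CAM-negative spheres), and of 6 neuronal markers 5 were higher (744 to 939 FPKM, against 35.1 to 68.8 FPKM). The highest neuronal marker in L1CAM-positive spheres was *Snap25* (9.41 and 8.82). The paper reports pan-neuronal genes in chromaffin cells, *Nefl* and *Nefm* of this list among them, so the list does not mark neurons alone. Of 6 endothelial markers 3 were lower (35.7 to 36.5 FPKM, against 193 to 369 FPKM), as were 3 of 6 capsule and fibroblast markers (955 to 1050 FPKM, against 4410 to 6710 FPKM). Of the 4 macrophage markers 0 passed the test of limma, and 1 was lower at an unadjusted p under 0.05 (6.95 to 8.67 FPKM, against 13.9 to 49.5 FPKM). Of the 6 proliferation markers 0 passed the test of limma, and 1 was higher at an unadjusted p under 0.05 (198 to 264 FPKM, against 74.5 to 156 FPKM). The part of these cell types in the results below was not tested, and in bulk RNA fewer cells of a type and less RNA per cell cannot be told apart.

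Of the 46 genes, 28 were higher in L1CAM-positive spheres at an adjusted p under 0.05, against 11.6% of all genes tested, 1 was lower, against 10.0% of all genes, and 17 did not pass the test. The shares of all genes given here include genes that were not read in any library. When a gene had to reach 1 FPKM in at least 2 libraries, 41 of the 46 were tested. Of these 28 were higher, against 21.2% of the 14091 genes kept, and 1 was lower, against 22.4%. Each family had genes that were higher in L1CAM-positive spheres. All 3 growth-cone and *Uchl1* genes and all 3 end-binding proteins were called higher, as were 4 of 5 CRMPs, 3 of 4 stathmins, 6 of 9 beta-tubulins, 2 of 4 doublecortins, 4 of 9 structural MAPs, 1 of 2 gamma-tubulins and 2 of 7 alpha-tubulins. *Tubb6* was the 1 gene called lower, a call lost with any 1 of the libraries left out. The median log2 fold change of the 46 was 1.21, and that of all genes tested was 0.0. In 36 genes both L1CAM-positive libraries lay above every L1CAM-negative library, as in 23.0% of all genes. In 1 gene, *Tubb6*, the order was the reverse, as in 26.0% of all genes, and in 9 the fractions overlapped. At least 1 FPKM was read in both L1CAM-positive libraries for 41 of the 46 genes. The other 5, *Tuba3a*, *Tuba3b*, *Tubb1*, *Tubb2a-ps2* and *Dclk3*, stayed under 1 FPKM in every library. Of the called genes *Tubb1* and *Dclk3* belong to them, with log2 fold changes of 0.06 and 0.20. The count of higher genes was 18 without L1CAM-negative 25, 19 without L1CAM-negative 31 and 31 without L1CAM-negative 28, and 18 with the robust form of the variance estimate. Without either L1CAM-positive library, which leaves 1 in that fraction, the count was no higher than in these fits. Over all genes, the share called higher was 5.44% without L1CAM-negative 25, 6.11% without L1CAM-negative 31 and 11.7% without L1CAM-negative 28. With the robust form the share was 3.33%. With the shared numbers 25 and 31 as a block, 0 of the 46 genes were called higher (smallest adjusted p over all genes 0.063). In that fit 34 of the 46 genes had an unadjusted p under 0.05, beside 8417 of all 23903 genes. The 14 genes that passed with any 1 of the libraries left out were *Tubb2a*, *Tubb2b*, *Tubb3*, *Tubb4a*, *Tuba1a*, *Stmn2*, *Stmn3*, *Stmn4*, *Map1b*, *Map2*, *Map9*, *Dpysl5*, *Gap43* and *Mapre3*.

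**Figure D1:**
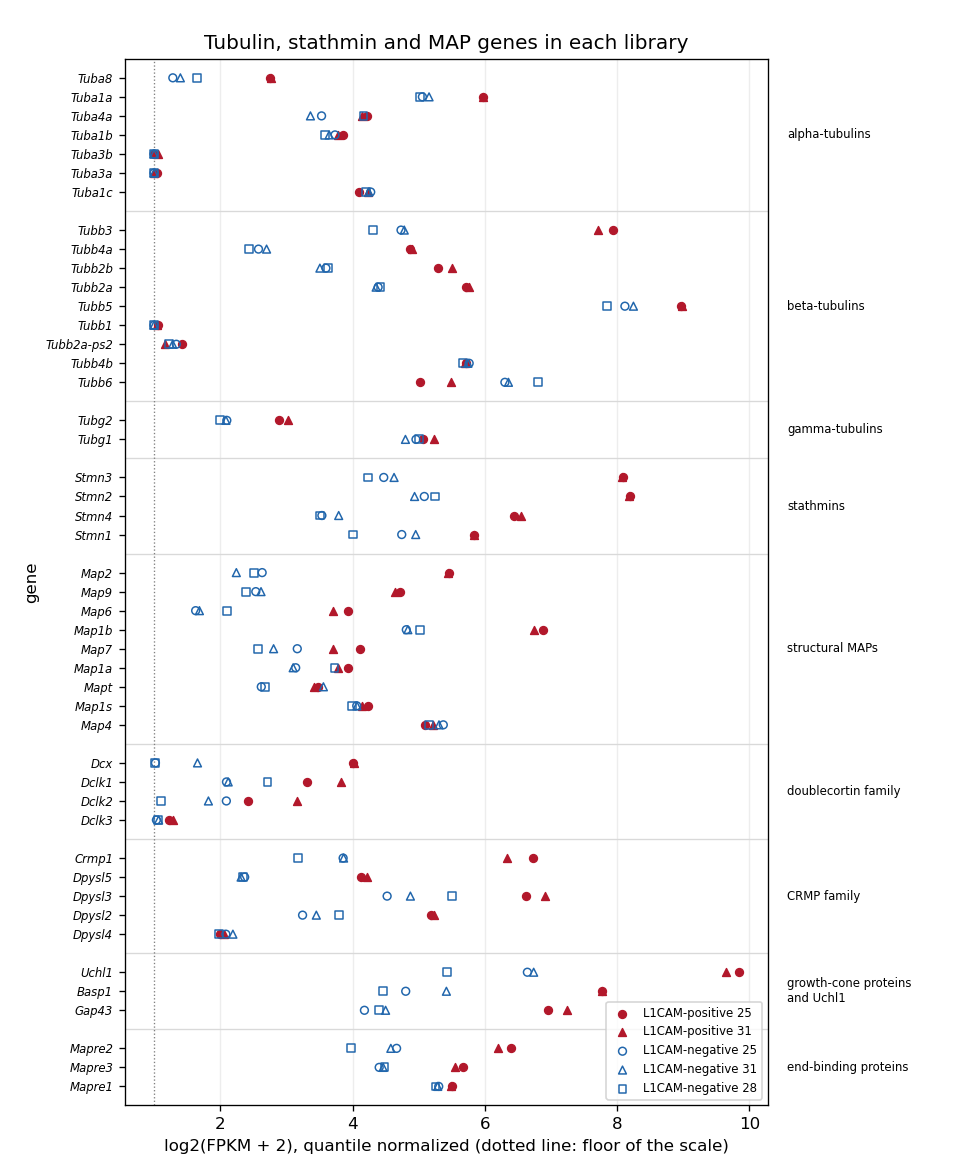
Level of each of the 46 genes in each library on the log2(FPKM + 2) scale, grouped by family, with filled symbols for the 2 L1CAM-positive libraries and open symbols for the 3 L1CAM-negative libraries. The filled symbols lie right of all open ones in 36 genes, and *Tubb6* is the 1 gene with the reverse order.

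**Figure D2:**
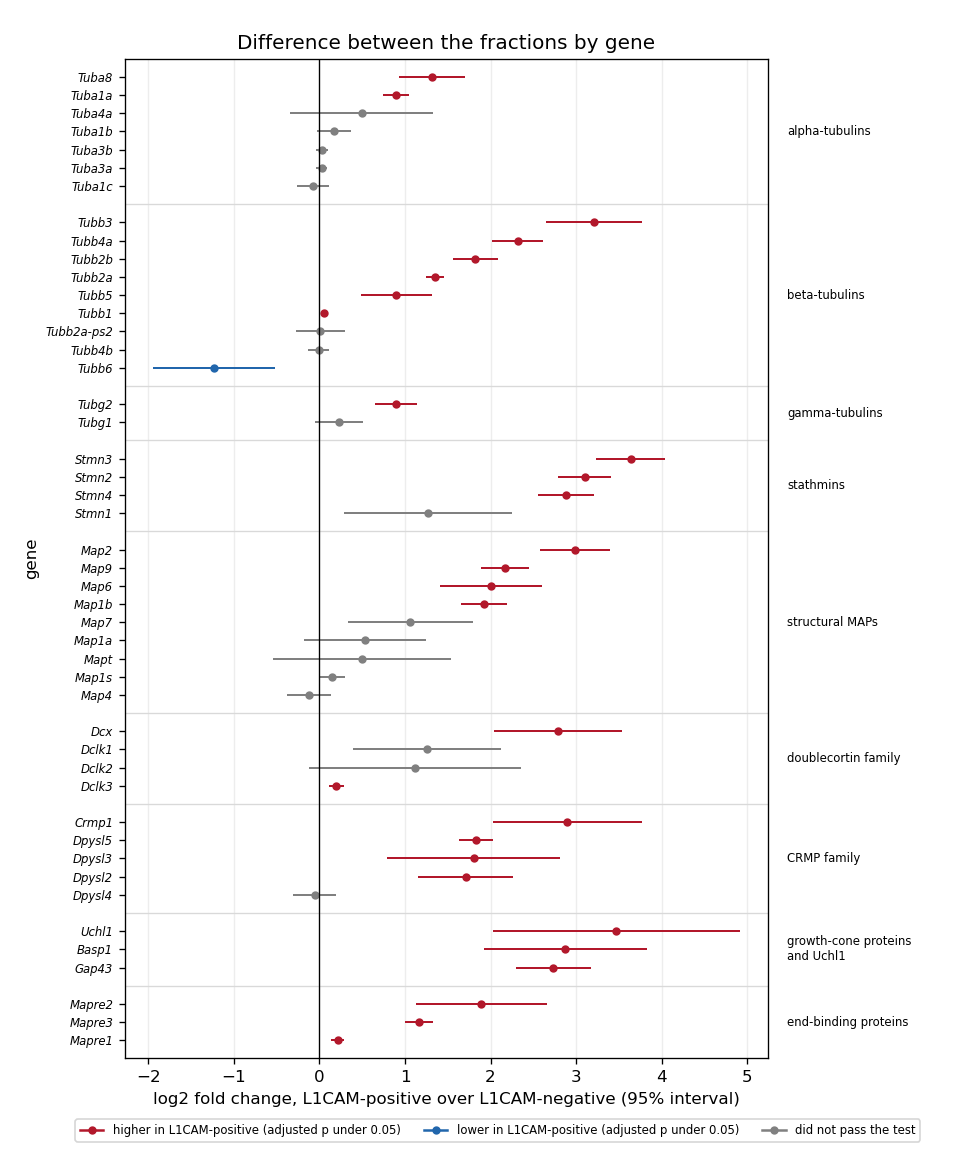
Log2 ratio of L1CAM-positive to L1CAM-negative spheres for each gene with its 95% interval from limma; red marks the 28 genes higher in L1CAM-positive spheres, blue the 1 lower, grey those that did not pass the test. The stathmins reach 3.64 (*Stmn3*), while *Tubb4b*, *Tuba1c* and *Map4* lie close to 0.

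The beta-tubulins split into isotypes that were several times higher in L1CAM-positive spheres, isotypes with little difference and 1 that was lower. The last coding bases of 4 of them, before the stop codon, are shown because they encode the tail, which sets *Tubb3* and *Tubb5* apart from the others, and because they show how alike the near copies *Tubb2a* and *Tubb2b* are. This pair differs in 3 of 60 bases, given in capitals, and all 3 changes are synonymous, so that the residues encoded here are the same. *Tubb3* and *Tubb5*, whose coding sequences of 1350 and 1332 bases differ in length, have their last codon in capitals (GRCm38, GENCODE transcripts, chr13:34074471-34074530 minus strand, chr13:34127474-34127533 minus strand, chr8:123421620-123421679 plus strand and chr17:35834985-35835044 minus strand).
Tubb2a: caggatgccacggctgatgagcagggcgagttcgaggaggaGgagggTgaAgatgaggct
Tubb2b: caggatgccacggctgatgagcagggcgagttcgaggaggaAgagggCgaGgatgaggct
Tubb3: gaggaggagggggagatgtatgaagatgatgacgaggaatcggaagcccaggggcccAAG
Tubb5: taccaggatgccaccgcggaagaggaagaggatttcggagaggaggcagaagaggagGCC

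Of the 9 genes of this family, 6 were higher, 1 was lower and 2 were not past the test. *Tubb3* (NM_023279), the beta-tubulin known as a marker of neurons, was at 7.93 and 7.71 in L1CAM-positive spheres, against 4.73, 4.78 and 4.31 in L1CAM-negative spheres. The fractions were 3.20 apart in number 25 and 2.92 in number 31, and the log2 fold change was 3.21 (SE 0.19, adjusted p = 0.00537). *Tubb4a* (NM_009451), an isotype of brain and of myelinating glia, was at 4.87 and 4.91, against 2.58, 2.70 and 2.43 (log2 fold change 2.32, SE 0.10, adjusted p = 0.00407). *Tubb2b* (NM_023716), an isotype of the developing brain, was at 5.29 and 5.51, against 3.60, 3.51 and 3.62 (log2 fold change 1.82, SE 0.09, adjusted p = 0.00449). Its near copy *Tubb2a* (NM_009450) was at 5.72 and 5.77, against 4.39, 4.36 and 4.42 (log2 fold change 1.35, SE 0.03, adjusted p = 0.00287). All 4 of these neural isotypes were well separated, with the libraries of each fraction within 0.5 of each other. *Tubb5* (NM_011655), the general isotype of dividing and developing cells, had the highest FPKM of the tubulins in both fractions. It was at 8.96 and 8.98 in L1CAM-positive spheres, against 8.12, 8.25 and 7.85 in L1CAM-negative spheres. The log2 fold change of 0.90 (SE 0.14, adjusted p = 0.0264) passed the test in 1 of the 5 fits with a library left out, the one without number 28.

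*Tubb6* (NM_026473), the class V isotype that many non-neuronal cells express, was the 1 gene of the 46 that was lower in L1CAM-positive spheres. It was at 5.02 and 5.49 in L1CAM-positive spheres, against 6.30, 6.36 and 6.81 in L1CAM-negative spheres. The log2 fold change was -1.23 (SE 0.24, adjusted p = 0.0439), and the highest level was that of number 28. Cortex, endothelial and fibroblast markers were also lower in L1CAM-positive spheres, as given above, and their part in the level of *Tubb6* was not tested. The call was lost in each of the 5 fits with a library left out, with values of -1.0 without L1CAM-positive 25, -1.47 without L1CAM-positive 31, -1.33 without L1CAM-negative 25, -1.30 without L1CAM-negative 31 and -1.07 without L1CAM-negative 28, and with the robust form (adjusted p = 0.103). *Tubb4b* (NM_146116), a widely expressed isotype that also builds cilia, was at 5.72 and 5.71, against 5.76, 5.74 and 5.67, a log2 fold change of -0.01 with a 95% interval of -0.12 to 0.09. The isotype of platelets, *Tubb1*, was at 0.0919 and 0.0663 FPKM and listed at 0 in each L1CAM-negative library. The pseudogene *Tubb2a-ps2* was at 0.681 and 0.234 FPKM, against 0.526, 0.432 and 0.346 FPKM. Over the whole family, the higher genes numbered 4 without L1CAM-negative 25 or 31 and 6 without number 28.

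Among the alpha-tubulins, 2 of 7 were higher in L1CAM-positive spheres and 5 did not pass the test, with a median log2 fold change of 0.17. *Tuba1a* (NM_011653), the main alpha-tubulin of developing neurons, was at 5.98 and 5.97 in L1CAM-positive spheres, against 5.06, 5.16 and 5.03 in L1CAM-negative spheres. The libraries of each fraction were close together, and the log2 fold change was 0.89 (SE 0.05, adjusted p = 0.00503). *Tuba8* (NM_017379), a divergent isotype known from muscle, testis and brain, was at 2.75 and 2.77, against 1.28, 1.40 and 1.65 (log2 fold change 1.32, SE 0.13, adjusted p = 0.0111), a level of at most 4.83 FPKM. *Tuba8* passed in 2 of the 5 fits with a library left out, without L1CAM-negative 25 or 28. The general isotypes *Tuba1b* and *Tuba1c* were nearly level between the fractions. *Tuba1b* (NM_011654) was at 3.86 and 3.79, against 3.73, 3.65 and 3.58, and *Tuba1c* (NM_009448) at 4.10 and 4.24, against 4.28, 4.25 and 4.20. *Tuba4a* (NM_009447) was at 4.22 and 4.14, against 3.53, 3.36 and 4.17. The value of number 28 reached those of the L1CAM-positive libraries, and without it the log2 fold change was past the test (adjusted p = 0.0316, against 0.349 with all libraries). The testis isotypes were at or next to the floor. *Tuba3a* was at 0.0685 and 0 FPKM and *Tuba3b* at 0 and 0.0898 FPKM in L1CAM-positive spheres, and both were listed at 0 in each L1CAM-negative library.

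The alpha-tubulin levels carry a limit of their own, because the transcripts of close isotypes share much of their sequence and the division of shared reads among them is an estimate. Of the 50-base stretches of *Tuba1b*, 73.8% occur in a transcript of another gene, and the values are 72.9% for *Tuba1a*, 61.0% for *Tuba1c*, 50.9% for *Tubb4b*, 49.6% for *Tubb2a* and 39.3% for *Tubb2b*. For *Tubb3* the share is 0.0% and for *Tubb5* 0.1%.

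The make-up of the tubulin mRNA pool was compared between the fractions by the part of each isotype in the summed FPKM of its family. The beta-tubulin sum holds 8 genes, as the pseudogene *Tubb2a-ps2* was left out. With 2 libraries against 3 the smallest 2-sided p of an exact permutation test is 0.1, so differences between the fractions are given with their spread. *Tubb3* was 24.1% ± 2.49 of beta-tubulin FPKM in L1CAM-positive spheres (SD, n = 2) and 4.86% ± 0.683 in L1CAM-negative spheres (SD, n = 3), and the exact p was 0.1. *Tubb6* had the opposite order, at 3.95% ± 0.967 in L1CAM-positive against 19.3% ± 5.00 in L1CAM-negative spheres (exact p = 0.1). *Tubb4b*, with nearly the same level in both fractions, made up 5.43% of the L1CAM-positive and 11.0% of the L1CAM-negative pool, as the summed beta-tubulin FPKM was 930 ± 7.10 in L1CAM-positive spheres and 464 ± 26.5 in L1CAM-negative spheres. *Tubb5* stayed the main isotype, at 53.1% and 54.2% in L1CAM-positive spheres, against 59.6%, 61.4% and 52.1% in L1CAM-negative spheres, where number 28 lay below both L1CAM-positive libraries (exact p = 0.4). Of the smaller isotypes, *Tubb2a* was at 5.55% in L1CAM-positive and 4.10% in L1CAM-negative spheres, *Tubb2b* at 4.33% and 2.15%, and *Tubb4a* at 2.97% and 0.85%.

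In the alpha-tubulin pool, *Tuba1a* was 55.3% ± 0.108 in L1CAM-positive spheres (SD, n = 2) and 44.7% ± 3.36 in L1CAM-negative spheres (SD, n = 3), with an exact p of 0.1. *Tuba1c* was at 14.5% in L1CAM-positive and 23.7% in L1CAM-negative spheres and *Tuba1b* at 11.1% and 14.9%. *Tuba8* was at 4.34% and 1.02%. The shares within this family rest on the division of shared reads described above. The summed alpha-tubulin FPKM was 110.0 ± 0.0674 in L1CAM-positive and 71.4 ± 2.32 in L1CAM-negative spheres, and the ratio of beta- to alpha-tubulin FPKM was 8.50 and 8.42, against 6.61, 7.0 and 5.92. *Tuba1a*, *Tuba1b* and *Tuba1c* share far more of their sequence with other genes than *Tubb3* and *Tubb5* do. The part of this in the alpha-tubulin sum and in the ratio was not tested.

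**Figure D3:**
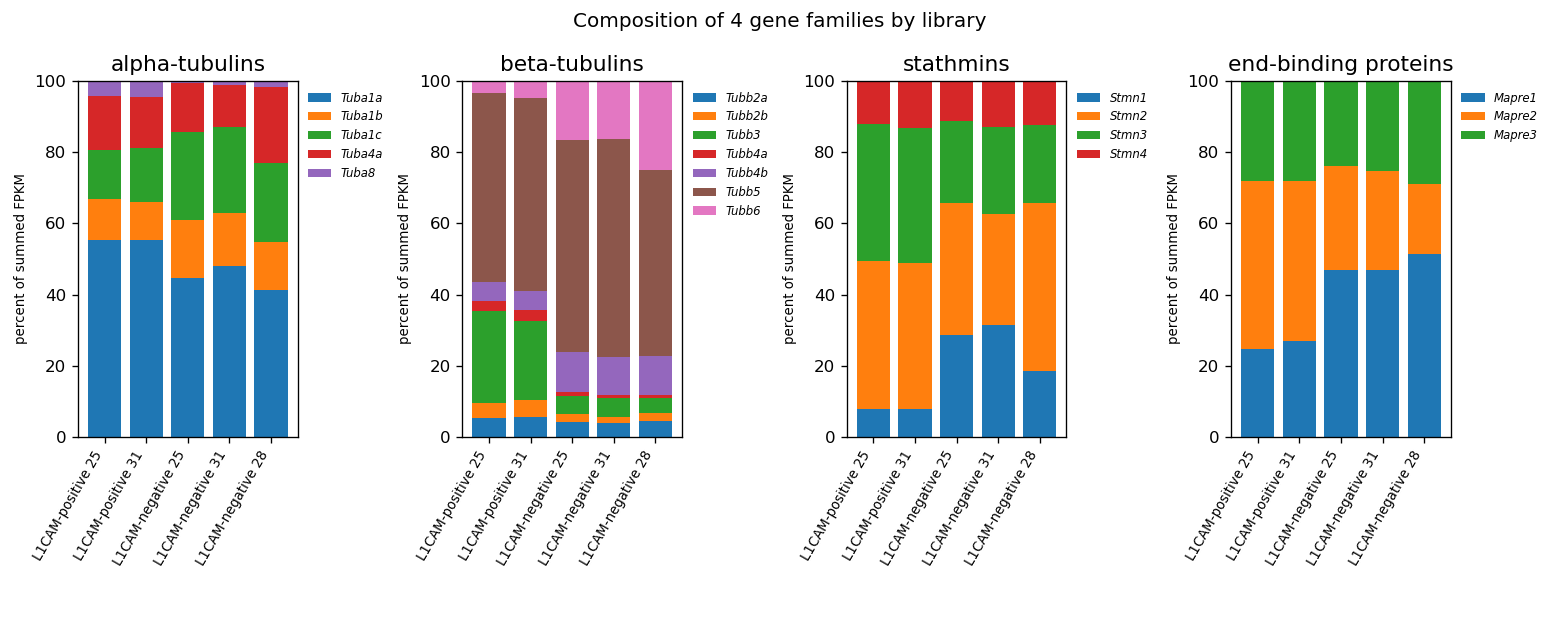
Share of each gene in the summed FPKM of its family, in percent, for alpha-tubulins, beta-tubulins, stathmins and end-binding proteins, 1 bar per library with the 2 L1CAM-positive libraries on the left. *Tubb3* takes 22.3% and 25.9% of the beta-tubulin bars in L1CAM-positive spheres, and *Tubb6* takes 16.3% to 25.1% in L1CAM-negative spheres.

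The gamma-tubulins, which seed microtubules at the centrosome and elsewhere, differed from each other. *Tubg2* (NM_134028), the copy known mainly from brain, was at 2.89 and 3.03 in L1CAM-positive spheres, against 2.10, 2.09 and 2.0 in L1CAM-negative spheres. The log2 fold change of *Tubg2* was 0.90 (SE 0.08, adjusted p = 0.00986), and it passed in 3 of the 5 fits with a library left out, not without L1CAM-positive 31 (adjusted p = 0.0525) or L1CAM-negative 25 (adjusted p = 0.0517). *Tubg1* (NM_134024), the general copy, was the more abundant, at 5.07 and 5.23, against 4.96, 4.80 and 5.01, and did not pass the test (adjusted p = 0.192). About 14.1% of the 50-base stretches of *Tubg1* occur in another gene, mostly *Tubg2*.

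The stathmins had the highest median log2 fold change of the families, 2.99. *Stmn2*, *Stmn3* and *Stmn4*, whose products sit on membranes of the Golgi and growth cones of neurons, were higher in L1CAM-positive spheres, while *Stmn1*, the cytosolic form that dividing cells also use, did not pass the test. *Stmn2* (NM_025285) was at 8.20 and 8.18 in L1CAM-positive spheres, against 5.09, 4.94 and 5.25 in L1CAM-negative spheres (log2 fold change 3.10, SE 0.11, adjusted p = 0.00371). *Stmn3* (NM_009133) was at 8.09 and 8.08, against 4.47, 4.63 and 4.23 (log2 fold change 3.64, SE 0.14, adjusted p = 0.00377), the largest change of the 46 genes on this scale. With an offset of 0.1 in place of 2, the order was *Dcx* (5.74) before *Stmn3* (3.76). *Stmn4* (NM_019675) was at 6.45 and 6.55, against 3.54, 3.79 and 3.51 (log2 fold change 2.88, SE 0.11, adjusted p = 0.00378). Each of the 3 passed with any 1 of the libraries left out. *Stmn1* (NM_019641) was at 5.84 and 5.84, against 4.74, 4.95 and 4.0. The fractions did not overlap, but the low value of number 28 widened the spread (log2 fold change 1.27, SE 0.34, adjusted p = 0.0820), and without that library the adjusted p was 0.0234. Of its 50-base stretches 36.5% occur in another transcript, mostly a pseudogene. Summed over the 4 genes, stathmin FPKM was 703 ± 1.15 in L1CAM-positive and 85.0 ± 8.14 in L1CAM-negative spheres, a ratio of 8.27. *Stmn1* made up 7.86% of this sum in L1CAM-positive and 26.2% ± 6.85 in L1CAM-negative spheres, and *Stmn3* 38.3% and 23.3%, whereas *Stmn2* differed less, with 41.2% in L1CAM-positive and 38.4% in L1CAM-negative spheres.

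Among the 9 structural MAPs, 4 were higher in L1CAM-positive spheres and 5 did not pass the test. *Map2* (NM_008632), the MAP of neuronal cell bodies and dendrites, was at 5.46 and 5.44 in L1CAM-positive spheres, against 2.63, 2.24 and 2.51 in L1CAM-negative spheres. It had the largest change of the family (log2 fold change 2.99, SE 0.14, adjusted p = 0.00444). *Map1b* (NM_008634), a MAP of growing axons, was the most abundant at 6.88 and 6.74, against 4.81, 4.84 and 5.02 (log2 fold change 1.92, SE 0.09, adjusted p = 0.00444). *Map9* (NM_001081230), which also works at the spindle, was at 4.72 and 4.65, against 2.54, 2.62 and 2.39 (log2 fold change 2.17, SE 0.09, adjusted p = 0.00410). *Map2*, *Map1b* and *Map9* passed with any 1 of the libraries left out. *Map6* (NM_010837), which makes microtubules resistant to cold, was at 3.93 and 3.70, against 1.63, 1.69 and 2.11 (log2 fold change 2.0, SE 0.20, adjusted p = 0.0112). It passed only without number 28 among those 5 fits, with an adjusted p between 0.0136 and 0.0766. Summed over 3 transcripts *Map6* was at 30.3 and 29.4 FPKM, against 4.08, 3.5 and 3.55 FPKM (log2 fold change 2.48, adjusted p = 0.00312). The remaining genes of the family were closer. *Map7* (NM_008635), which recruits kinesin-1, was at 4.12 and 3.70, against 3.17, 2.81 and 2.57 (log2 fold change 1.06, adjusted p = 0.0636), without overlap. *Map1a* (NM_001173506), a MAP of mature neurons, was at 3.93 and 3.78, against 3.14, 3.10 and 3.73 (log2 fold change 0.53, adjusted p = 0.242). It passed without number 28 (adjusted p = 0.0280).

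*Mapt* encodes the axonal MAP tau. Its main transcript (NM_010838) overlapped between the fractions and was at 3.48 and 3.41 in L1CAM-positive spheres, against 2.62, 3.56 and 2.68 in L1CAM-negative spheres, so that the 5-day L1CAM-negative library was the highest of all. The log2 fold change was 0.49 (SE 0.36, adjusted p = 0.443), and without L1CAM-negative 31 it was 0.80 (adjusted p = 0.0447). Summed over its 5 transcripts *Mapt* did not overlap, at 4.46 and 4.51, against 3.65, 4.03 and 3.66 on the log2(FPKM + 2) scale. *Map4* (NM_001205330), the MAP of most non-neuronal cells, was at 5.09 and 5.22, against 5.37, 5.31 and 5.16. *Map1s* (NM_173013), a short and widespread relative of *Map1b*, was at 4.23 and 4.15, against 4.06, 4.07 and 4.0. Neither passed the test (log2 fold changes of -0.12 for *Map4* and 0.15 for *Map1s*).

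*Dcx* and its relatives make the doublecortin family, of which 2 of 4 were higher in L1CAM-positive spheres. *Dcx* (NM_001110223), which stabilises microtubules in migrating neuroblasts, was at 4.01 and 4.03 in L1CAM-positive spheres, against 1.02, 1.66 and 1.01 in L1CAM-negative spheres. In FPKM this is 14.1 and 14.3, against 0.0293, 1.15 and 0.0173, so that this transcript was close to the floor in the L1CAM-negative libraries of 8 days and not in that of 5 days. Summed over its 4 transcripts, *Dcx* was at 33.4 and 29.7 FPKM, against 2.27, 1.69 and 0.545 FPKM, without that gap. The log2 fold change of the main transcript was 2.79 (SE 0.26, adjusted p = 0.00970). With an offset of 0.1 in place of 2 it was 5.74 and did not pass (adjusted p = 0.0626). *Dcx* did not pass without L1CAM-positive 25 (adjusted p = 0.0689) or 31 (adjusted p = 0.0665). *Dclk1* (NM_001111053) and *Dclk2* (NM_027539), kinases with a doublecortin domain, did not pass the test, although neither overlapped. *Dclk1* was at 3.31 and 3.82, against 2.10, 2.12 and 2.71 (log2 fold change 1.26, adjusted p = 0.0645). It passed without number 28 (adjusted p = 0.0470). *Dclk2* was at 2.42 and 3.16, against 2.09, 1.82 and 1.10 (log2 fold change 1.11, adjusted p = 0.174). *Dclk3* was at 0.329 and 0.444 FPKM, against 0.0511, 0.0973 and 0.0881 FPKM.

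Of the CRMP family, 4 of 5 genes were higher in L1CAM-positive spheres. *Crmp1* (NM_007765) was at 6.72 and 6.33 in L1CAM-positive spheres, against 3.86, 3.87 and 3.17 in L1CAM-negative spheres (log2 fold change 2.90, SE 0.30, adjusted p = 0.0117). *Dpysl5* (NM_023047) was at 4.13 and 4.22, against 2.37, 2.32 and 2.34 (log2 fold change 1.83, SE 0.07, adjusted p = 0.00373), the narrowest spread of the family, and it was the 1 member that passed with any 1 of the libraries left out. *Dpysl2* (NM_009955), the founding member that binds tubulin dimers and promotes axon growth, was at 5.18 and 5.23, against 3.25, 3.45 and 3.79 (log2 fold change 1.71, SE 0.19, adjusted p = 0.0133). *Dpysl3* (NM_001291455) was at 6.62 and 6.92, against 4.52, 4.88 and 5.50 (log2 fold change 1.80, SE 0.35, adjusted p = 0.0419). In both genes number 28 had the highest of the L1CAM-negative values, where *Crmp1* had its lowest. *Dpysl4* (NM_011993) was at 1.99 and 2.06, against 2.09, 2.19 and 1.98, and did not pass the test. The count of higher genes was 3 without L1CAM-negative 25 and 2 without L1CAM-negative 31, and it was smaller still without either L1CAM-positive library. *Dpysl3* did not pass with the robust form (adjusted p = 0.0896).

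*Gap43* and *Basp1*, which encode membrane-bound proteins of the growth cone, and *Uchl1*, a ubiquitin hydrolase abundant in neurons and neuroendocrine cells, were all higher in L1CAM-positive spheres. *Gap43* (NM_008083) was at 6.96 and 7.24 in L1CAM-positive spheres, against 4.18, 4.50 and 4.40 in L1CAM-negative spheres (log2 fold change 2.74, SE 0.15, adjusted p = 0.00500). *Basp1* (NM_027395) was at 7.77 and 7.77, against 4.80, 5.42 and 4.47 (log2 fold change 2.88, SE 0.33, adjusted p = 0.0138). *Uchl1* (NM_011670) was at 9.84 and 9.64, against 6.64, 6.74 and 5.43 (log2 fold change 3.47, SE 0.50, adjusted p = 0.0220). It was the most abundant of the 46 genes in L1CAM-positive spheres, at up to 913 FPKM. Number 28 had by far its lowest value, and without that library the adjusted p was 0.0101. Without any other single library *Uchl1* did not pass (adjusted p between 0.0609 and 0.129), and *Basp1* did not pass without L1CAM-positive 25 (0.0931), L1CAM-positive 31 (0.0882) or L1CAM-negative 25 (0.0648).

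The 3 end-binding proteins were all called, with changes of very different size. *Mapre2* (NM_153058) was at 6.40 and 6.20 in L1CAM-positive spheres, against 4.67, 4.58 and 3.98 in L1CAM-negative spheres (log2 fold change 1.89, SE 0.26, adjusted p = 0.0203). *Mapre3* (NM_133350), the form enriched in brain and muscle, was at 5.68 and 5.55, against 4.40, 4.46 and 4.48 (log2 fold change 1.17, SE 0.05, adjusted p = 0.00443). *Mapre1* (NM_007896), the general form, was at 5.50 and 5.49, against 5.30, 5.29 and 5.25, a log2 fold change of 0.21 (SE 0.02, adjusted p = 0.0138) that rests on the narrow spread. *Mapre2* was the main form by FPKM in L1CAM-positive spheres, with 46.1% of the sum against 25.5% in L1CAM-negative spheres, and *Mapre1* was the main form in L1CAM-negative spheres, with 25.8% of the sum in L1CAM-positive and 48.4% in L1CAM-negative spheres. With a library left out, *Mapre3* passed in all 5 fits, and *Mapre1* and *Mapre2* passed only without number 28.

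Most members that were higher in L1CAM-positive spheres were still read in L1CAM-negative spheres. Their remaining level is given as a description, since the genes were selected by their call and the marker lists beside them were not. For the 26 called genes with at least 1 FPKM in both L1CAM-positive libraries, the L1CAM-negative FPKM was at a median of 15.1% of the L1CAM-positive FPKM in number 25 and 17.9% in number 31. In number 28 it was at 18.5% of the mean of both L1CAM-positive libraries. The same medians over the 10 chromaffin markers were 5.53%, 7.50% and 1.51%. Over the neuronal markers they were 16.0%, 13.8% and 7.44%, over 5 of the glial markers 9.16%, 7.49% and 17.4%, and over the proliferation markers 74.3%, 65.2% and 35.3%. By these medians, number 28 was the lowest L1CAM-negative library for the chromaffin, neuronal and proliferation markers and the highest for the glial markers. Single markers went the other way. The neuronal *Prph* was highest in number 28 (3.58, against 2.39 in number 25 and 2.03 in number 31). The glial *S100b* was lowest there (1.36, against 2.23 and 1.82). The summed chromaffin level of number 28 was 98.9 FPKM, beside 489 FPKM in number 25 and 530.0 FPKM in number 31. *Tubb3* was at 10.2%, 12.3% and 7.96%, *Stmn2* at 10.9%, 9.97% and 12.4%, and *Stmn3* at 7.46%, 8.48% and 6.22%. *Uchl1* was lowest in number 28, at 10.7%, 13.1% and 4.79%, and *Dpysl3* (21.7%, 23.0% and 40.3%) was highest there, also with its transcripts summed (22.3%, 22.4% and 34.0%). *Map6* was highest in number 28 by its main transcript (8.27%, 11.1% and 19.1%) but not by the sum of its transcripts (13.5%, 11.9% and 11.9%). Over the 28 called genes, number 28 was the lowest L1CAM-negative library in 14 and the highest in 9. The same counts over all genes are not given here, so these describe the called genes only. What part of the L1CAM-negative level belongs to L1CAM-negative cells was not tested.

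**Figure D4:**
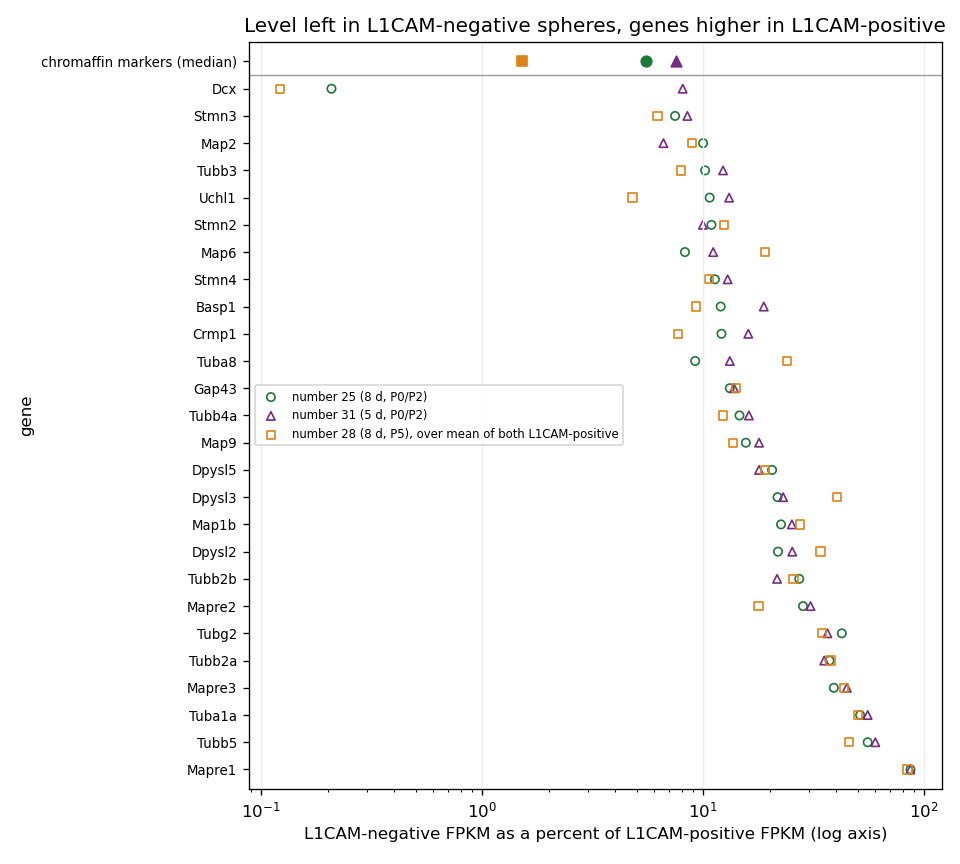
FPKM in L1CAM-negative spheres as a percent of that in L1CAM-positive spheres (log axis) for the 26 genes called higher with at least 1 FPKM in both L1CAM-positive libraries, with the median of 10 chromaffin markers as filled symbols in the top row. Numbers 25 and 31 are set against the L1CAM-positive library of the same number and number 28 against the mean of both; the genes, each by its main transcript, span 0.122% (*Dcx*) to 86.7% (*Mapre1*), and the chromaffin median of number 28 lies left of nearly all genes.

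The difference between the fractions was also taken within each shared number, as values with no test. Over the 46 genes, 37 were positive both in number 25, after 8 days, and in number 31, after 5 days, as were 28.9% of all genes. A further 5 were negative in both, as were 34.1% of all genes, and 4 had opposite signs or a difference of 0. In 20 of the 28 called genes the difference was larger at 8 days and in 8 it was larger at 5 days. The same split over all genes is not given here, so these counts describe the called genes only. The median of the 8-day minus the 5-day difference was 0.11, with a range of -0.37 to 0.62. *Dcx* (2.99 at 8 days and 2.37 at 5 days) and *Basp1* (2.97 and 2.35) had the widest gaps of this kind. With its transcripts summed, *Dcx* had 3.05 at 8 days and 3.11 at 5 days, and *Map2*, whose main transcript had 2.83 and 3.20, had 2.94 and 2.87. *Basp1* is listed with 1 transcript. Its 8-day minus 5-day level was 0.00 in L1CAM-positive spheres, against -0.62 in L1CAM-negative spheres. At 5 days each fraction has 1 library, and at 8 days the second L1CAM-negative library, number 28, comes from older mice, so that culture period, age and library cannot be told apart. Against the mean of the other L1CAM-negative libraries, number 28 differed most in *Uchl1* (-1.27), *Dclk2* (-0.855, main transcript), *Stmn1* (-0.845), *Dpysl3* (0.80) and *Tuba4a* (0.72). With the culture period as a term in the model, 22 genes were higher and 0 were lower in L1CAM-positive spheres, beside 7.23% and 5.33% of all genes. At an unadjusted p under 0.05, 1 gene, *Tubb6*, was lower.

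Several of the genes are listed with more than 1 transcript, and the estimates for single transcripts were less steady than those for genes. *Dclk2* has 6 transcripts. Its main one (NM_027539) held 23.4% and 45.8% of the summed FPKM in L1CAM-positive spheres, against 82.9%, 62.0% and 12.0% in L1CAM-negative spheres. With all transcripts summed the log2 fold change of *Dclk2* was 2.02 and passed the test (adjusted p = 0.0109), where the single transcript did not. *Mapt* passed as well when summed, with a log2 fold change of 0.70 (adjusted p = 0.0488). The transcript that was highest overall made up 68.2% of *Mapt* in L1CAM-negative 31, against 46.0% and 41.6% in the L1CAM-positive libraries. *Map2* was read mostly as NM_008632, with 75.6% and 79.4% in L1CAM-positive spheres, against 76.2%, 50.5% and 90.8% in L1CAM-negative spheres. *Dpysl3* had a pair of main transcripts in nearly equal parts, NM_001291455 with 52.1% and 54.4% in L1CAM-positive spheres, against 50.9%, 55.8% and 63.2% in L1CAM-negative spheres.

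Promoter sequences of 300 bases on GRCm38 were at hand for 31 of the 46 genes, with 37 promoters between them. The 150 bases before the start of *Tubb3* (chr8:123411403-123411552, plus strand), *Tubb2a* (chr13:34078009-34078158, minus strand) and *Stmn3* (chr2:181314501-181314650, minus strand) are shown, as genes that passed with any 1 of the libraries left out. Capitals mark the motifs found on either strand.
Tubb3: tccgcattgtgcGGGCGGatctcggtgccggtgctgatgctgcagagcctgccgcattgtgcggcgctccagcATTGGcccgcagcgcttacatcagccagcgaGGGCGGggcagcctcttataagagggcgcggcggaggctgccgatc
Tubb2a: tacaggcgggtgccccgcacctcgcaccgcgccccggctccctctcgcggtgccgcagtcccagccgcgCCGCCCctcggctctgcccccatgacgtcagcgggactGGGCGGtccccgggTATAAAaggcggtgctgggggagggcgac
Stmn3: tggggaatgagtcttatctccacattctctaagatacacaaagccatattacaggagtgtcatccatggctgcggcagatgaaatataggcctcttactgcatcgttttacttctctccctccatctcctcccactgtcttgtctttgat

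Motifs were searched on both strands. The share of all promoters was counted per promoter, whereas a member was counted if any of its promoters held the motif. The 31 matched members have 37 promoters between them. The shares of promoters and the counts of members are thus in different units and cannot be compared directly. The motif CCAAT occurs in 37.4% of the 32851 promoters in the table and in 14 of the 31 matched members. The TATA box, searched as TATAAA, occurs in 13.6% of all promoters and in 6 members. The core of a GC box, GGGCGG, occurs in 35.7% and in 20 members, and the E-box CACGTG in 7.2% and in 3 members. The left part of the RE1 element at which the repressor REST binds, TTCAGCACC, occurs in 0.4% of all promoters and in 0 members. The *Tubb3* and *Tubb2a* windows hold GC boxes, *Tubb2a* also holds TATAAA and *Tubb3* an inverted CCAAT, and the *Stmn3* window holds none of the 5. A match is a description of the letters and says nothing of binding.

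Other genes of the microtubule system, from 11 lists with 109 genes in the table (1 listed gene is not in it), were tested in the same fit. Of the 109, 34 were higher in L1CAM-positive spheres, beside 11.6% of all genes, 9 were lower, beside 10.0% of all genes, and 66 did not pass the test, with a median log2 fold change of 0.36. With the filter at 1 FPKM in at least 2 libraries 43 were higher and 11 lower, beside 21.2% and 22.4% of the genes kept. How many of the 109 that filter kept is not given here. With the robust form 9 were higher and 0 lower, beside 3.33% and 1.47% of all genes. With the culture period as a term the counts were 20 and 6, beside 7.23% and 5.33%. With the number as a block 0 were higher and 0 lower, as over all genes. The regulators of Cdk5, a kinase of neuronal MAPs, were among the largest changes. *Cdk5r2* was at 4.95 and 4.84 in L1CAM-positive spheres, against 2.21, 2.07 and 1.96 in L1CAM-negative spheres (log2 fold change 2.81, adjusted p = 0.00377), and *Cdk5r1* had a log2 fold change of 2.21. Of the 12 genes of MAP kinases and their partners 7 were higher and 1 was lower, *Mark4* with -0.44. *Tppp3*, a tubulin polymerization-promoting protein, was at 7.72 and 7.40, against 3.51, 3.29 and 3.39, and its log2 fold change of 4.17 (adjusted p = 0.00363) exceeded that of any of the 46 genes on the log2(FPKM + 2) scale. With *Fsd1* (1.85) it was among the 6 of 16 other MAPs that were higher, and *Macf1*, which links actin to microtubules, was lower (-0.47).

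Of the 20 tubulin-modifying enzymes, 7 were higher and 1 was lower. *Vash1*, which removes the last residue of alpha-tubulin, had a log2 fold change of 2.06 and *Agtpbp1*, which shortens glutamate chains, of 1.02. *Agbl2*, a relative of *Agtpbp1*, was lower with -0.25 near the floor. Of the 12 genes for proteins of microtubule ends, 6 were higher and 2 were lower. *Clasp2* had a log2 fold change of 2.08 and *Slain1*, a partner of the end-binding proteins, of 1.51, whereas its relative *Slain2* was lower with -0.88 and *Clip2* with -0.61. The severing enzymes also went both ways, with *Katnal2* at 1.15 and *Katnal1* at 0.79 and with *Katna1* at -0.44 and *Fignl2* at -0.80. Of the 10 mitotic MAPs 2 were higher, *Prc1* with 1.52 and *Numa1* with 0.44, and of the 6 growth-cone relatives 2, *Ncam1* with 2.96 and *Dbn1* with 0.97. The gamma-tubulin ring complex had 1 higher gene, *Tubgcp3* with 0.21, and 1 lower, *Nedd1* with -0.44, and augmin had *Haus5* with 0.52 and *Haus7* with -0.49. Of the 6 tubulin folding genes 0 passed the test of limma, and 2 were higher at an unadjusted p under 0.05. Of the 3 remaining tubulins 0 passed, and 0 had such a p. With a library left out, the higher genes of all the lists numbered 16 without L1CAM-negative 25, 19 without L1CAM-negative 31 and 34 without L1CAM-negative 28. The lower genes numbered 4, 4 and 9. Both counts were smaller still without either L1CAM-positive library, which leaves 1 library in that fraction. Over all genes, 5.44% were higher and 4.2% lower without L1CAM-negative 25, and 6.11% and 4.86% without L1CAM-negative 31. Without L1CAM-negative 28 the shares were 11.7% and 12.3%. *Tppp3*, *Fsd1*, *Cdk5r1*, *Cdk5r2* and *Mark4* passed with any 1 of the libraries left out, and the other genes named from the lists did not.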

How the data were processed

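RNA from 5 libraries of adrenal spheres had been sequenced as stranded, paired-end mRNA libraries. Per the labels and the methods, the authors mapped the reads with STAR 2.6.1a on mm10, obtained FPKM from Cufflinks and made the samples comparable by quantile normalization in limma. The deposited log2 values (32737 RefSeq transcripts) run from 1 to 17.6. As the lowest value is exactly 1, an offset of 2 was inferred, and it was subtracted from the power of 2 to give linear FPKM. The quantile normalization sets the libraries to 1 common distribution, so a change in the total RNA of a cell is not seen. The depth is unknown, the annotation release is not given in the sources used here, and 202 transcripts without a symbol (0.617%) were left out.

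The genes were chosen by symbol, and members, families and lists were chosen with earlier results of these data known. Of each symbol's transcripts the one of highest mean was used. All 23903 genes were fitted by lmFit and eBayes (with a trend) of limma 3.58.1 under R 4.3.3. The 2-sided p-values were adjusted over all genes (Benjamini-Hochberg), and an adjusted p under 0.05 counted as a call. Isotype shares of summed FPKM were compared with exact permutation tests. Every member is named, with its library values where its family holds a call, and from each list the 2 largest changes in each direction past the threshold. The alternatives were offsets of 0.1 and 5, a filter on genes at the floor, a filter at 1 FPKM in at least 2 libraries, summed transcripts, centring on the median, no trend, the robust form, a block for the number, a term for days in culture, and each library left out in turn. A lone L1CAM-positive library was then assumed to vary like the L1CAM-negative ones. Shared 50-base stretches were counted over GENCODE transcripts, in which 45 of the 46 genes were found. Python 3.11.15, pandas 2.3.3, numpy 2.4.6 and matplotlib 3.10.9 were used for tables and plots. Results of the paper's immunostaining and inhibitor assays were not analysed here.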

Additional observations from a re-analysis of the deposited data

How the results depend on the processing

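Of 15 alternatives, the count of genes higher in L1CAM-positive spheres (28) stayed between 22 and 31 with offsets of 0.1 or 5, either filter, summed transcripts, centring, no trend and a term for days in culture. It was 18 with the robust form, and between 17 and 31 with a library left out. Over all genes, the share called higher was 3.33% with the robust form and 7.23% with the term for days in culture. The filters raised this share. With the filter on genes at the floor, 15.9% of the 19549 genes kept were higher, beside 30 of the 46. With the filter at 1 FPKM, 21.2% of the 14091 genes kept were higher, beside 28 of the 41 of the 46 that were tested. The 28 called genes kept their direction in all alternatives that tested them. The count of lower genes, 1 (*Tubb6*), was 0 with no trend, with the robust form, with the term for days in culture and with any 1 library left out, and in each of these fits 1 gene was lower at an unadjusted p under 0.05. The numbers 25 and 31 are shared by the fractions, but the labels do not say what a number marks and there are only 2 pairs. Deviations from the group means correlated across 16032 genes at 0.15 in number 25 and 0.118 in number 31. With the number as a replicate block, 0 of the 46 genes were higher and 0 were lower at an adjusted p under 0.05. The same held for every gene of the table (smallest adjusted p = 0.063). In that fit 34 of the 46 genes had an unadjusted p under 0.05, beside 8417 of all 23903 genes. The genes that changed sign did not pass in the main comparison. *Map4* had 0.003 with summed transcripts, and *Tubb2a-ps2* had -0.053 with an offset of 0.1 and -0.018 with the block. With a library left out the values ran from -0.145 to 0.001 for *Tuba1c*, from 0.0 to 0.049 for *Tuba3a*, from 0.0 to 0.063 for *Tuba3b*, from -0.039 to 0.007 for *Tubb4b* and from -0.124 to 0.14 for *Tubb2a-ps2* (-0.018 without number 28). *Dcx* had 5.744 with an offset of 0.1 and did not pass (adjusted p = 0.0626). *Stmn1*, *Map7* and *Dclk1* did not pass with all genes but passed with either filter and with centring. The cause of these changes was not tested. Genes near the floor, such as *Tubb1*, *Dclk3*, *Tuba3a* and *Tuba3b*, are not resolved on this scale, and the depth behind their values is unknown.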
